A study of Mus musculus with 6 samples.

Results

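Myc and 43 genes of ribosome biogenesis were followed in CD31-positive cells of mouse tumours that did or did not overexpress BMP9. The genes were chosen by name, with earlier results of these data known, as Myc, nucleolar rRNA-processing factors and RNA polymerase I subunits. Of the 44, 42 had a row among the 23930 genes of the table. Fbl and Wdr74 were not matched and are not analysed here. Tumours grew for 2 weeks under the skin of C57/Bl6 mice from injected cells of the Lewis lung carcinoma line (LLC), and were then dissociated and sorted for CD31, a surface protein of endothelial cells that some leukocytes also carry. The control group held replicates 1, 2 and 3, from tumours of control LLC cells, and the BMP9 group held replicates 4, 5 and 6, from tumours of LLC cells that overexpressed BMP9, a bone morphogenetic protein ligand. Host strain, tumour line, sort and time were shared by both groups. It was the tumour cells that overexpressed BMP9, whereas RNA was taken from the sorted cells. Because the labels do not say which animal each library came from, the p-values speak for the spread of these 6 samples, which may be technical.

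A ribosome starts in the nucleolus, where RNA polymerase I copies the rRNA genes into a long precursor. Small nucleolar ribonucleoproteins (snoRNPs) of the box C/D and box H/ACA classes guide methylation and pseudouridylation of this precursor, and separate sets of assembly factors build the small and the large subunit. Myc, a transcription factor that binds DNA as a dimer with Max, is known to raise the expression of many of these genes in growing cells, including activated lymphocytes.

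The libraries held between 1321762 and 4583428 reads in the control group and between 1974510 and 28380957 reads in the BMP9 group. Values are RPM, the reads of a gene scaled to a common library total. One short amplicon stands for each gene and amplicons differ in yield, so levels of different genes are not compared. A level of 3 reads was 0.106 to 2.27 RPM, depending on the library, and such floors cover counting error only. The transcript of BMP9 itself, Gdf2, had 0 reads in each control library and 1, 1 and 5 reads in BMP9 replicates 4, 5 and 6. The sort marker Pecam1 (CD31) averaged 448 ± 84.3 RPM in the control group and 303 ± 53.5 RPM in the BMP9 group (SD, n = 3 each). The endothelial cadherin gene Cdh5 was at 4.58 to 13.5 RPM in control and at 3.18 to 8.17 RPM in BMP9 libraries. The 20 endothelial markers summed to 83.6 to 143 RPM in control and 144 to 162 RPM in BMP9 libraries, and 14 of the 20 were too low to be tested. Markers of T and NK cells (16 genes) summed to 6022 to 6604 RPM in control and 780 to 1463 RPM in BMP9 libraries, where all 15 tested markers were lower. Macrophage and monocyte markers (16 genes in the table) summed to 5061 to 7710 RPM in control and 19860 to 26205 RPM in BMP9 libraries, where all 14 tested were higher. None of these T and NK, macrophage or endothelial markers was at 0 in all libraries. Neutrophil markers summed to 116 to 147 RPM in control and 400.2 to 482 RPM in BMP9 libraries. Of these 10 genes, 5 were tested and all 5 were higher, while 5 were too low to be tested. Platelet markers summed to 36.3 to 72.0 RPM in control and 584 to 807 RPM in BMP9 libraries. Of the 7 in the table, 3 were tested and all 3 were higher, while 4 were too low. Among all genes tested, 22.5% were lower and 12.7% higher at a limma adjusted p of 0.05. Endothelial markers were lower in 1 and higher in 2 of 6 tested cases, with a median log2 fold change of 0.06. The lower marker was Kdr. It reached the 5 RPM needed for testing in control libraries only, so its difference is a description. The T and NK, macrophage, neutrophil and platelet lists differed between the same groups as the genes described below, and their part in the results was not tested. In bulk samples fewer cells of a type and less RNA per cell cannot be told apart.

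Myc was lower in BMP9 than in control libraries. Myc (chromosome 15, 61985391 to 61990374, mm10) was at 378, 301 and 208 RPM in control replicates 1, 2 and 3 and at 88.1, 87.3 and 98.7 RPM in BMP9 replicates 4, 5 and 6. All BMP9 libraries lay below all control libraries, and the BMP9 libraries were close to each other while the control libraries spread from 208 to 378 RPM. The group means were 296 ± 85.3 and 91.4 ± 6.35 RPM (SD, n = 3 each). The log2 fold change, taken throughout as BMP9 minus control on the log2(RPM + 1) scale, was -1.64 (SE 0.28, 95% confidence interval -2.23 to -1.05, limma adjusted p = 0.00039). BMP9 replicate 4 carries the run time stamp of the control libraries, whereas replicates 5 and 6 carry a later one. Within the earlier stamp, which sets replicate 4 alone against the controls, the Myc log2 fold change was -1.69. In that fit the spread comes from the control libraries alone and the lone BMP9 library is assumed to vary like them, so its calls say nothing of the spread among BMP9 libraries.

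A filter of at least 5 RPM in at least 3 libraries left 41 of the genes, Myc included, of which 18 fell and 0 rose at a limma adjusted p of 0.05. That is 43.9% lower, against 22.5% lower and 12.7% higher among all 9460 genes tested. The 18 were Myc, Polr1b, Nop58, Dkc1, Gar1, Nop10, Ncl, Npm1, Noc4l, Imp4, Nop14, Tsr1, Ddx21, Brix1, Nop2, Ebna1bp2, Ddx18 and Nle1. At an unadjusted p of 0.05 a further 6 genes were lower and 0 higher, so that the 95% confidence interval of 24 genes excluded 0. The share of all genes at that unadjusted threshold was not taken, so these counts have no background to be read against. The remaining 23 genes did not pass the adjusted threshold, and of these only Utp18 had a positive fold change. Of all genes tested, 60.8% had a negative fold change. With edgeR and with DESeq2 34 of the 41 were negative, and 0 were called higher as well. The median log2 fold change of the 41 was -0.71 and that of all tested genes -0.24. The groups did not overlap for 27 of the 41, all with the BMP9 libraries lower, against 31.2% of all genes in that direction. Gar1 passed the filter through the control libraries only and so had to differ. It is counted in the 18, and in the counts below wherever it was called. Nle1 and Rrs1 were under 5 RPM in a single BMP9 library each.

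**Figure D1:**
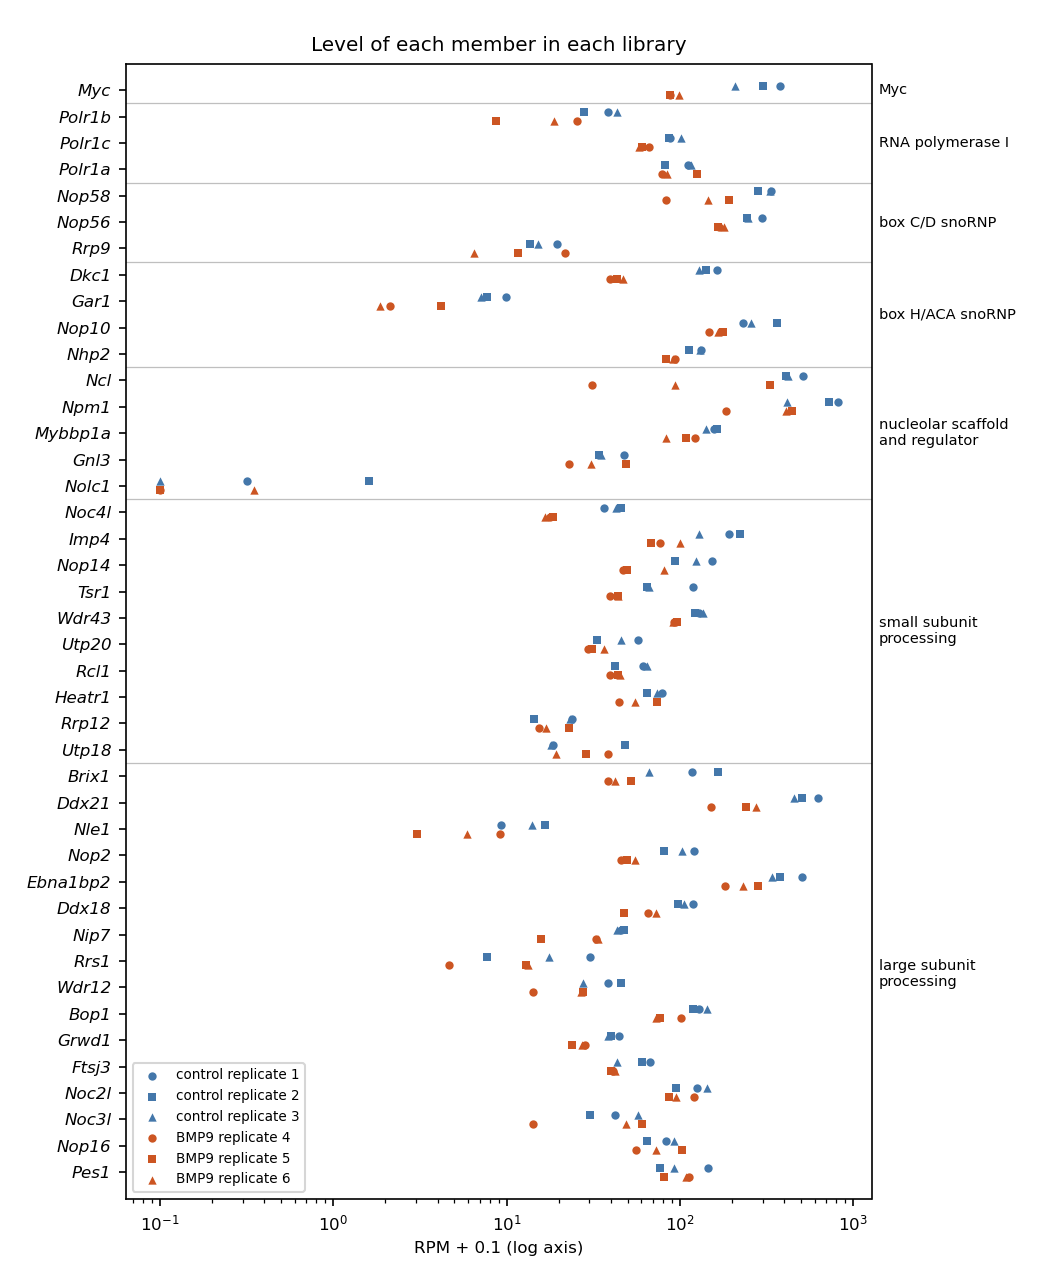
Level of each gene in each library as RPM + 0.1 on a log axis, grouped by role, with control libraries in blue and BMP9 libraries in orange and a marker shape for each replicate. Myc spans 208 to 378 RPM in control and 87.3 to 98.7 RPM in BMP9 libraries, and values of 0 (Nolc1) sit at 0.1.

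The shift was seen in each BMP9 library. Relative to the control means, the median deviation of the 41 genes was 0.13, -0.12 and -0.07 (log2) in control replicates 1, 2 and 3 and -0.68, -0.59 and -0.58 in BMP9 replicates 4, 5 and 6. Over all tested genes the BMP9 libraries had medians of -0.20, -0.25 and -0.23. Reads of the 42 genes together made up 0.646%, 0.557% and 0.51% of the control libraries and 0.263%, 0.357% and 0.324% of the BMP9 libraries. RPM is a share of a library, and when the libraries were scaled with TMM factors, which set the median of all genes to -0.01, the median of the 41 was -0.48 and 11 remained called lower (background 15.1%). Those 11 were Myc, Nop58, Dkc1, Gar1, Ncl, Noc4l, Imp4, Nop14, Ddx21, Brix1 and Nop2, where Gar1 is a description for the reason given above. Within the earlier run time stamp 15 of the 41 were called lower (36.6%, against 17.6% of all genes). These did not include Polr1b, Nop10, Tsr1, Ddx18 and Nle1, and did include Noc3l and Wdr12. Myc, Dkc1, Ddx21, Noc4l and Imp4 were the 5 genes called lower in each of the 19 alternative analyses that were run.

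**Figure D2:**
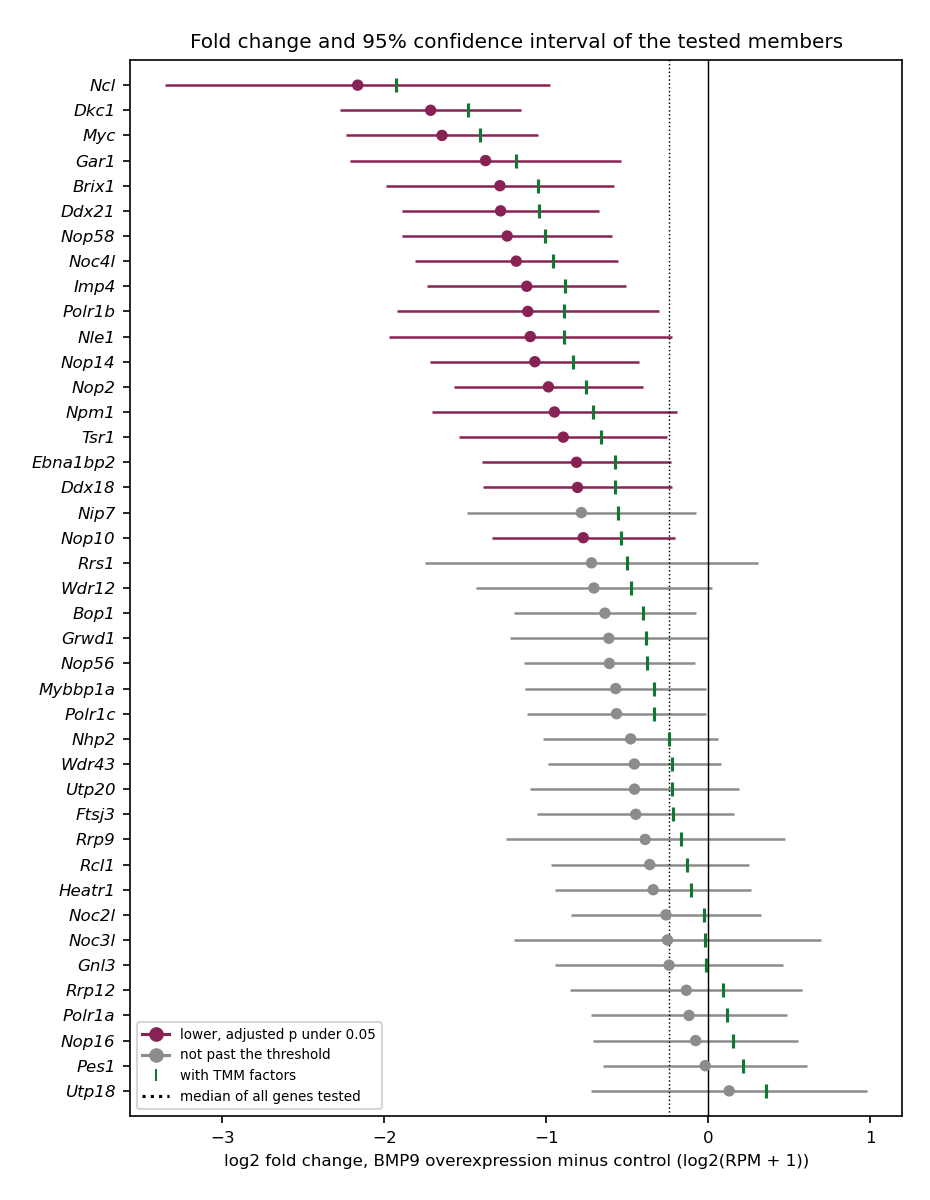
Log2 fold change (BMP9 overexpression minus control, log2(RPM + 1)) with its 95% confidence interval for the 41 tested genes, in purple where the adjusted p was under 0.05, with the value under TMM factors as a green tick and the median of all genes (-0.24) as a dotted line. The 18 purple genes run from Ncl (-2.16) to Nop10 (-0.77), and Utp18 at 0.13 is the single gene above 0.

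Myc and Max bind the E-box CACGTG, which is its own reverse complement. The 250 bases before the annotated start were read for 38 of the 44 genes, from RefSeq on GRCm38.p6, the assembly called mm10. Bop1, Fbl, Myc, Npm1, Rrp12 and Rrs1 had no entry. The E-box stood in 3 of the 38 windows (7.9%), against 10.2% of the 7326 tested genes with a window and 6.9% of all 27025 genes of that table. The 3 windows are shown to place the motif, with the E-box in capitals and each sequence written 5′ to 3′ on the strand of the gene. They belong to 2 genes that fell, Imp4 and Nop2, and to Utp18, which did not pass the test. Motif matches are a description of these letters and not evidence of binding.
Imp4, chr1:34439579-34439828, plus strand: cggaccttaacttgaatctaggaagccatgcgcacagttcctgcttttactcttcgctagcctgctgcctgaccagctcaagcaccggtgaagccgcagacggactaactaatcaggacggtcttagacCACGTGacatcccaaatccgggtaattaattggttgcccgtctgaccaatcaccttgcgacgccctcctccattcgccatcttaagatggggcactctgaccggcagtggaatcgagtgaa
Nop2, chr6:125131633-125131882, plus strand: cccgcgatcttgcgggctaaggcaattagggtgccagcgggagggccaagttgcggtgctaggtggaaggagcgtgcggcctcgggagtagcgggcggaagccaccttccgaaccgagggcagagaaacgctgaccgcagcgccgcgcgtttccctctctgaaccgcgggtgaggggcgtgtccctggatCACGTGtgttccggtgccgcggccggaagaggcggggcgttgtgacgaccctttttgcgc
Utp18, chr11:93885767-93886016, minus strand: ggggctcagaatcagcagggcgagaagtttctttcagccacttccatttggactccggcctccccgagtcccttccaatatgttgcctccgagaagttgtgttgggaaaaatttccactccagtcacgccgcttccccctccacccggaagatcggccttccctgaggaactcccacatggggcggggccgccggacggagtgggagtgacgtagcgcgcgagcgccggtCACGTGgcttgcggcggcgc
The E-box began 121 bases before the start of Imp4, 60 before that of Nop2 and 20 before that of Utp18.

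RNA polymerase I makes the rRNA precursor. Of the 3 of its subunits among the 44 genes, Polr1b fell (other genes of the enzyme are given with the comparison lists). Polr1b, the second-largest subunit (chromosome 2, 129100995 to 129126594), was at 38.6, 28.0 and 43.0 RPM in control replicates 1, 2 and 3 and at 25.3, 8.62 and 18.7 RPM in BMP9 replicates 4, 5 and 6. The groups did not overlap, though BMP9 replicate 4 lay just under the lowest control. Its log2 fold change was -1.11 (SE 0.38, limma adjusted p = 0.033), and -0.49 within the earlier run time stamp, where the call was lost. It was also lost without control replicate 1 (-1.06) or 3 (-0.99) and without BMP9 replicate 5 (-0.70) or 6 (-1.22). Polr1c, a subunit shared with RNA polymerase III, was at 87.5, 86.2 and 101.5 RPM in control and at 66.3, 60.1 and 58.2 RPM in BMP9 libraries. All BMP9 values were below all control values, and the fold change of -0.57 (95% confidence interval -1.12 to -0.01) had a limma adjusted p of 0.1. Polr1a, the largest subunit with the catalytic centre (chromosome 6, 71909053 to 71984935), was at 112, 81.7 and 116 RPM in control and at 78.5, 125 and 83.7 RPM in BMP9 libraries. The groups overlapped, with the highest value of all in BMP9 replicate 5, and the interval of the fold change ran from -0.73 to 0.49 around -0.12.

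Box C/D snoRNPs place methyl groups on rRNA, and of their 3 tested proteins Nop58 fell. Nop58, a core protein (chromosome 1, 59684971 to 59719044), was at 333, 281 and 333 RPM in control and at 83.6, 192 and 145 RPM in BMP9 libraries. The fold change was -1.24 (SE 0.30, limma adjusted p = 0.0055), and it was -1.90 within the earlier stamp, which holds replicate 4, the lowest of the BMP9 libraries. Nop56, its partner and paralogue (chromosome 2, 130274430 to 130279313), was at 298, 245 and 247 RPM in control and at 169, 167 and 179 RPM in BMP9 libraries. The groups did not overlap and each was tight, but the fold change of -0.61 (95% confidence interval -1.14 to -0.08) had a limma adjusted p of 0.067. Rrp9, a protein of the U3 snoRNP that is needed for the first cleavages of the precursor, was at 19.4, 13.6 and 15.0 RPM in control and at 21.8, 11.6 and 6.41 RPM in BMP9 libraries. BMP9 replicate 4 was the highest of the 6, and the fold change of -0.39 (95% confidence interval -1.25 to 0.47) was 0.44 within the earlier stamp.

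Box H/ACA proteins convert uridines of rRNA to pseudouridine and also bind telomerase RNA, and of these Dkc1 and Nop10 fell. Gar1 was tested only through its control libraries. Dkc1, the pseudouridine synthase dyskerin (chromosome X, 75095854 to 75109777), was at 163, 141 and 129.5 RPM in control and at 39.5, 43.5 and 46.9 RPM in BMP9 libraries. Its log2 fold change of -1.71 (SE 0.26, limma adjusted p = 0.00018) had the smallest p of all 41 genes. Gar1, an accessory protein of the synthase (chromosome 3, 129824912 to 129831396), was at 9.82, 7.57 and 7.0 RPM in control and at 2.03, 4.08 and 1.76 RPM in BMP9 libraries. These levels rest on 45, 10 and 14 control reads and 4, 18 and 50 BMP9 reads. Its fold change was -1.38 (SE 0.39, limma adjusted p = 0.014), which is a description here and lost its call without control replicate 1 (-1.25) or BMP9 replicate 6 (-1.21). Nop10, the smallest protein of the particle, was at 231, 362 and 257 RPM in control and at 147, 177 and 165 RPM in BMP9 libraries. Here control replicate 2 stood above the others. The fold change of -0.77 (SE 0.27, limma adjusted p = 0.034) lost its call when any of 5 libraries was left out, with values of -0.90, -0.58 and -0.83 without control replicates 1, 2 and 3 and of -0.70 and -0.78 without BMP9 replicates 4 and 6. Nhp2, the fourth protein, was at 132, 113 and 131 RPM in control and at 93.7, 82.8 and 91.5 RPM in BMP9 libraries. Its fold change was -0.48 (95% confidence interval -1.02 to 0.06, limma adjusted p = 0.16).

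Among abundant nucleolar proteins and regulators, Ncl and Npm1 fell. Ncl, the RNA-binding protein nucleolin (chromosome 1, 86344719 to 86359400), was at 516, 412 and 423 RPM in control and at 30.9, 330.2 and 94.1 RPM in BMP9 replicates 4, 5 and 6. Every BMP9 library was below every control, but the BMP9 libraries differed 10.7-fold among themselves, the widest spread of the 41 genes in that group. The fold change was -2.16 (SE 0.56, limma adjusted p = 0.0076) and -3.81 within the earlier stamp, which holds replicate 4, the lowest library. It was -1.29 (adjusted p = 0.076) with edgeR and -1.30 (adjusted p = 0.27) with DESeq2 on recovered reads. Npm1, the histone and ribosome chaperone nucleophosmin (chromosome 11, 33152287 to 33163206), was at 812, 723 and 413 RPM in control and at 185, 445 and 407 RPM in BMP9 libraries. BMP9 replicate 5 lay above control replicate 3, so the groups overlapped. The fold change was -0.95 (SE 0.35, limma adjusted p = 0.048), and -1.75 within the earlier stamp. Its call was lost without BMP9 replicate 4 (-0.55) or 6 (-1.12) and without control replicate 1 (-0.76) or 2 (-0.84). Which locus gave these reads is uncertain, since 40.9% of the 50-base windows of the Npm1 transcript also occur in transcripts of other annotated genes. The same share was 63.3% for Ddx18, 37.2% for Nop56 and 20.3% for Pes1.

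The other nucleolar regulators did not pass the test. Mybbp1a, a nucleolar protein known to repress rRNA gene transcription, was at 157, 163 and 142 RPM in control and at 122, 108 and 83.0 RPM in BMP9 libraries. Its groups did not overlap. The fold change was -0.57 (limma adjusted p = 0.1), and -0.69 without BMP9 replicate 4, where it passed the threshold. Gnl3, the GTPase nucleostemin of proliferating cells, was at 47.6, 34.0 and 35.0 RPM in control and at 22.8, 48.5 and 30.4 RPM in BMP9 libraries. BMP9 replicate 5 held the highest level and replicate 4 the lowest, and the interval of the fold change ran from -0.95 to 0.46. Nolc1, a chaperone of snoRNPs, had 1, 2 and 0 reads in control and 0, 0 and 7 reads in BMP9 libraries and was not tested.

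Small-subunit factors assemble on the precursor as the processome, and 4 of 10 fell (40%, against 22.5% of all genes). Noc4l, a partner of Nop14 in the particle (chromosome 5, 110648418 to 110653417), was at 36.2, 45.4 and 42.5 RPM in control and at 17.7, 18.4 and 16.6 RPM in BMP9 libraries. The fold change was -1.19 (SE 0.29, limma adjusted p = 0.006), and its BMP9 libraries were almost equal. Imp4, a protein of the U3-associated Mpp10 complex (chromosome 1, 34439851 to 34449356), was at 192, 221 and 128 RPM in control and at 76.5, 67.8 and 99.9 RPM in BMP9 libraries. It changed by -1.12 (SE 0.29, limma adjusted p = 0.0074). Nop14 was at 154, 93.1 and 124 RPM in control and at 46.6, 49.4 and 80.8 RPM in BMP9 libraries. Its groups were separate, and the fold change of -1.07 (SE 0.30, limma adjusted p = 0.013) was -0.90 (adjusted p = 0.082) without control replicate 1. Tsr1, a late factor of the small-subunit precursor, went from 83.2 ± 30.8 to 42.5 ± 2.59 RPM (SD, n = 3 each). Its fold change of -0.90 (limma adjusted p = 0.031) lost its call without control replicate 1 (-0.61) or BMP9 replicate 6 (-0.92).

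The other 6 small-subunit genes had fold changes between -0.46 and 0.13 and did not pass. Wdr43, a member of the early UTP-A complex, was at 129, 122 and 135 RPM in control and at 92.2, 96.6 and 91.3 RPM in BMP9 libraries, without overlap. Its fold change was -0.46 (95% confidence interval -0.99 to 0.08). Heatr1, of the same complex, was at 78.8, 64.3 and 74.0 RPM in control and at 44.6, 74.2 and 55.2 RPM in BMP9 libraries, where replicate 5 reached the control range. Utp20, a large processome protein, was at 57.2, 33.3 and 45.5 RPM in control and at 29.4, 30.8 and 36.2 RPM in BMP9 libraries. Rcl1, a protein needed for cleavage of the precursor, was at 61.5, 42.4 and 64.5 RPM in control and at 39.5, 43.8 and 45.2 RPM in BMP9 libraries. In both genes the overlap came from control replicate 2, the lowest control. Rrp12, an export factor for both subunits, was at 23.8, 14.4 and 23.0 RPM in control and at 15.2, 22.9 and 16.8 RPM in BMP9 libraries. Utp18, of the UTP-B complex, was at 18.3, 48.4 and 18.0 RPM in control and at 38.5, 28.8 and 19.1 RPM in BMP9 libraries. Control replicate 2 held its highest value, and the fold change of 0.13 (95% confidence interval -0.72 to 0.98) was below 0 without control replicate 1 or 3 or BMP9 replicate 4.

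Large-subunit factors were the largest group, and 6 of the 16 tested fell (37.5%, against 22.5% of all genes). Ddx21, a nucleolar RNA helicase (chromosome 10, 62580251 to 62602281), was at 626, 508 and 457 RPM in control and at 151, 241 and 274 RPM in BMP9 libraries. The fold change was -1.28 (SE 0.28, limma adjusted p = 0.0029) and -1.79 within the earlier stamp. Brix1, an early assembly factor (chromosome 15, 10474779 to 10485947), was at 117, 165 and 66.0 RPM in control and at 38.5, 52.2 and 42.0 RPM in BMP9 libraries. Its control libraries varied more than its BMP9 libraries, and the fold change was -1.29 (SE 0.33, limma adjusted p = 0.0074). Nop2, an rRNA methyltransferase (chromosome 6, 125131909 to 125144753), was at 119.8, 81.0 and 103 RPM in control and at 45.6, 49.4 and 55.2 RPM in BMP9 libraries. It changed by -0.99 (SE 0.27, limma adjusted p = 0.012), or by -0.86 (adjusted p = 0.076) without control replicate 1.

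Of the other 3 that fell, Ebna1bp2, an assembly factor for the large subunit, went from 408 ± 89.4 to 232 ± 50.9 RPM (SD, n = 3 each), a fold change of -0.81 (limma adjusted p = 0.032). Ddx18, another helicase, went from 107 ± 10.5 to 61.7 ± 12.8 RPM (-0.81, adjusted p = 0.032). Nle1, which acts with the remodelling ATPase Mdn1, went from 13.3 ± 3.79 to 5.97 ± 3.09 RPM (-1.10, adjusted p = 0.049), on 13 to 166 reads in the BMP9 libraries. These calls did not hold with TMM factors, and each depended on single libraries. That of Ebna1bp2 was lost on leaving out control replicate 1 (-0.64), control replicate 2 (-0.86), BMP9 replicate 4 (-0.65) or BMP9 replicate 6 (-0.83). That of Ddx18 was lost without control replicate 1 (-0.73) or 3 (-0.81) or BMP9 replicate 5 (-0.63). For Nle1 the call was lost on leaving out any library but BMP9 replicate 4, with -1.33, -0.93 and -1.04 for the controls in order and -0.74 and -1.14 for BMP9 replicates 5 and 6, and the fold change was -0.46 within the earlier stamp.

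Pes1, Bop1 and Wdr12 form the PeBoW complex, which is needed to mature the large-subunit rRNA, and none of them passed the test. Pes1 (chromosome 11, 3963975 to 3980004) was at 145, 77.2 and 92.5 RPM in control and at 113, 81.2 and 109 RPM in BMP9 libraries, with complete overlap and a fold change of -0.02 (95% confidence interval -0.65 to 0.61). Bop1 was at 129, 119 and 143 RPM in control and at 102, 77.1 and 73.1 RPM in BMP9 libraries. Its groups were separate, the fold change was -0.64 (limma adjusted p = 0.072), and it passed at -0.78 without BMP9 replicate 4. Wdr12 was at 38.4, 45.4 and 27.5 RPM in control and at 14.2, 27.4 and 26.8 RPM in BMP9 libraries. Control replicate 3 and BMP9 replicate 5 were nearly equal, and the fold change of -0.71 (95% confidence interval -1.44 to 0.02) was -1.30 within the earlier stamp, where it passed. The difference between the 3 partners was not tested.

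Nip7, Grwd1 and Ftsj3 did not pass the test, and their groups did not overlap. Nip7, a factor of late precursor processing, was at 45.6, 47.7 and 43.0 RPM in control and at 32.9, 15.6 and 33.6 RPM in BMP9 libraries, a fold change of -0.78 (limma adjusted p = 0.08) that passed at -0.95 without BMP9 replicate 4. Grwd1, a WD-repeat chaperone of a ribosomal protein, was at 44.3, 40.1 and 38.5 RPM in control and at 28.4, 23.8 and 27.1 RPM in BMP9 libraries (-0.61, adjusted p = 0.11). Ftsj3, an rRNA methyltransferase, was at 67.4, 60.5 and 43.5 RPM in control and at 41.02, 39.9 and 41.9 RPM in BMP9 libraries (-0.45, adjusted p = 0.24). The BMP9 libraries of Ftsj3 were almost equal and lay just under the lowest control.

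Rrs1, Noc2l, Noc3l and Nop16 had overlapping groups. Rrs1, which helps to load the 5S particle, was at 30.1, 7.57 and 17.5 RPM in control and at 4.56, 12.9 and 13.2 RPM in BMP9 libraries, the widest control spread of the 41 genes (3.98-fold). Noc2l, which helps to move large-subunit precursors through the nucleus, was at 125, 94.6 and 144 RPM in control and at 120.0, 86.6 and 94.3 RPM in BMP9 libraries. Its partner Noc3l was at 42.3, 30.3 and 57.0 RPM in control and at 14.2, 60.3 and 48.9 RPM in BMP9 libraries. For Noc3l the BMP9 libraries bracketed the controls, and its fold change of -0.25 (95% confidence interval -1.20 to 0.69) was -1.50 within the earlier stamp and 0.37 without BMP9 replicate 4. Nop16, an assembly factor of the large subunit, was at 82.9, 64.3 and 92.5 RPM in control and at 55.7, 103 and 72.7 RPM in BMP9 libraries, a fold change of -0.08 (95% confidence interval -0.71 to 0.55).

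**Figure D3:**
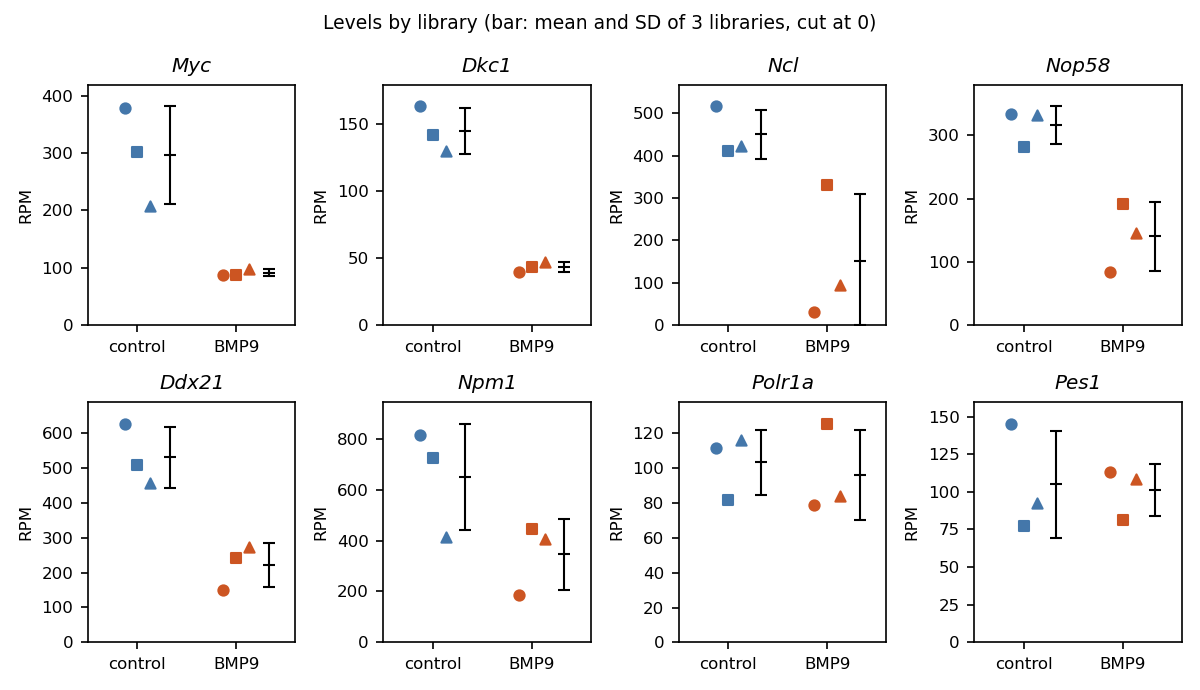
Levels (RPM, axis from 0) of 8 genes by library, blue for control and orange for BMP9 libraries, with a circle, square and triangle for replicates 1, 2 and 3 or 4, 5 and 6, and with the mean and SD beside them (the lower SD bar of Ncl in BMP9 libraries ends at 0, since the SD of 158 RPM exceeds the mean of 152 RPM). Myc and Dkc1 are tight in BMP9 libraries (87.3 to 98.7 and 39.5 to 46.9 RPM), Ncl is spread from 30.9 to 330.2 RPM, and Polr1a and Pes1 overlap between groups.

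Other genes of the pathway were lower at near the share of all genes. In a list of 86 further ribosome biogenesis genes 83 were tested. Of these, 20 fell (24.1%, against 22.5% of all genes) and 2 rose (2.41%, against 12.7%), with a median of -0.45. The difference between this list and the 41 genes was not tested. Nol9, a polynucleotide kinase of rRNA processing, changed by -1.70 (limma adjusted p = 0.0014) and Utp23, a processome protein, by -1.31 (adjusted p = 0.0025). Nat10, an rRNA acetyltransferase, had a fold change of -2.21. Nat10, Utp3 and Abt1 are counted among the 20 but passed the filter through the control libraries only, so their differences are a description. The 2 that rose were Mrto4, a ribosome-stalk assembly factor (1.57, limma adjusted p = 0.0054), and Pak1ip1 (0.86, adjusted p = 0.045). The number lower was 9 with TMM factors or edgeR and 37 with array weights, 10 without control replicate 1 and 13 without BMP9 replicate 6. Of all genes, 15.1% were lower with TMM factors, 15.0% with edgeR and 35.4% with array weights. That share was 14.5% without control replicate 1 and 16.4% without BMP9 replicate 6. Within the earlier stamp neither gene that rose was called (1.33 for Mrto4 and 0.39 for Pak1ip1), and the count higher was 1 when control replicate 2, control replicate 3, BMP9 replicate 5 or BMP9 replicate 6 was left out.

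Further polymerase genes gave small counts. Shares of the lists below are to be read against 22.5% of all genes lower. Of 11 other RNA polymerase I genes 3 fell (27.3%, near that share) and 0 rose (median -0.53): Taf1d (-1.16, limma adjusted p = 0.004) and Ubtf (-1.39, adjusted p = 0.0065), both of the initiation machinery at rRNA genes, and the subunit Polr1e (-0.87, adjusted p = 0.025). Ubtf went from 25.3 ± 8.86 to 8.80 ± 1.67 RPM (SD, n = 3 each). Of 11 RNA polymerase III subunits 3 fell (27.3%, median -0.26), among them Polr3g (-1.82, limma adjusted p = 0.00094) and Polr3k (-1.17). Of 10 RNA polymerase II subunits 2 (20%), Polr2a (-1.12, limma adjusted p = 0.0087) and Polr2f (-1.31), fell (median -0.50). Within the earlier stamp Polr1e (-0.70), Polr3k (-0.97), Polr2a (-0.66) and Polr2f (-1.22) were no longer called. Without control replicate 1 the count for the other polymerase I genes was 1, and without control replicate 2 that for polymerase II was 1.

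Ribosomal protein genes could be read only in part, since 63 of the 79 listed were not matched in the table and are not analysed here. Of 12 tested, 6 fell (50%, against 22.5% of all genes) and 0 rose (median -0.85). Rpl30 went from 196 ± 24.7 to 88.0 ± 7.01 RPM (-1.14, limma adjusted p = 0.003), and Rpl32 (-1.73) and Rps15 (-1.08) also fell. The number lower was 3 without BMP9 replicate 6, with TMM factors or edgeR and within the earlier stamp. Ribosomal protein genes have many near-identical pseudogenes, so the source of these reads is uncertain.

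Of 10 tested genes among the partners and antagonists of Myc, 3 fell and 2 rose, shares of 30% and 20% that are near those of all genes (22.5% lower and 12.7% higher). Mxd3, a Max partner of proliferating cells, was at 18.8, 22.7 and 18.5 RPM in control and at 2.03, 1.13 and 1.27 RPM in BMP9 libraries (-3.09). Mxd3 is counted among the 3 but passed the filter through the control libraries only, so its difference is a description. Mga (-1.48, limma adjusted p = 0.0025) and Mxd4 (-1.41, or -0.74 and not called within the earlier stamp) also fell. Mxi1, which competes with Myc for Max, went from 17.4 ± 6.29 to 123 ± 57.0 RPM (2.69, adjusted p = 0.00012; 1.78 within the earlier stamp). Mnt, another repressor that pairs with Max, rose by 1.40 (adjusted p = 0.0082). Max itself averaged 230.3 ± 23.0 RPM in the control group and 175 ± 30.4 RPM in the BMP9 group, with overlapping groups and a fold change of -0.40 (95% confidence interval -0.95 to 0.15).

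Of 24 tested Myc targets outside the ribosome pathway (median -0.84), 11 were lower, which is 45.8% against 22.5% of all genes. Another 3 were higher, a share of 12.5% that is near the 12.7% of all genes. Tfrc, the transferrin receptor, went from 196 ± 62.2 to 37.4 ± 9.75 RPM (-2.35, limma adjusted p = 5e-05). Shmt1, a serine hydroxymethyltransferase, had a fold change of -2.82. It is counted among the 11 but passed the filter through the control libraries only, so its difference is a description. Ccnd2, a G1 cyclin, changed by -2.14 and Ppat, the first enzyme of purine synthesis, by -1.77. The 3 that rose were Nampt (1.42), Ldha (0.98) and Eif4e (1.08), of NAD synthesis, lactate production and translation initiation. None of those 3 was called within the earlier stamp (0.75, 0.69 and 1.04), and 1 was called higher without control replicate 2.

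Genes of cell division and of early stress responses moved in opposite directions in the same libraries. All 16 tested proliferation genes fell (median -2.22, against 22.5% of all genes lower). Of these, Bub1 passed the filter through the control libraries only, so its difference is a description. Mki67, the antigen of cycling cells, went from 320 ± 89.0 to 22.8 ± 9.09 RPM (-3.79, limma adjusted p = 3.6e-06). The 15 immediate-early and heat shock genes are a kind known to react to the handling of tissue, and Myc is often counted with them. Of these genes 9 rose (60%, against 12.7% of all genes) and 0 fell (median 1.11). Fos went from 271 ± 24.5 to 760 ± 291 RPM (1.42, limma adjusted p = 0.0016). The part of either list in the fall of Myc and the ribosome biogenesis genes was not tested.

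**Figure D4:**
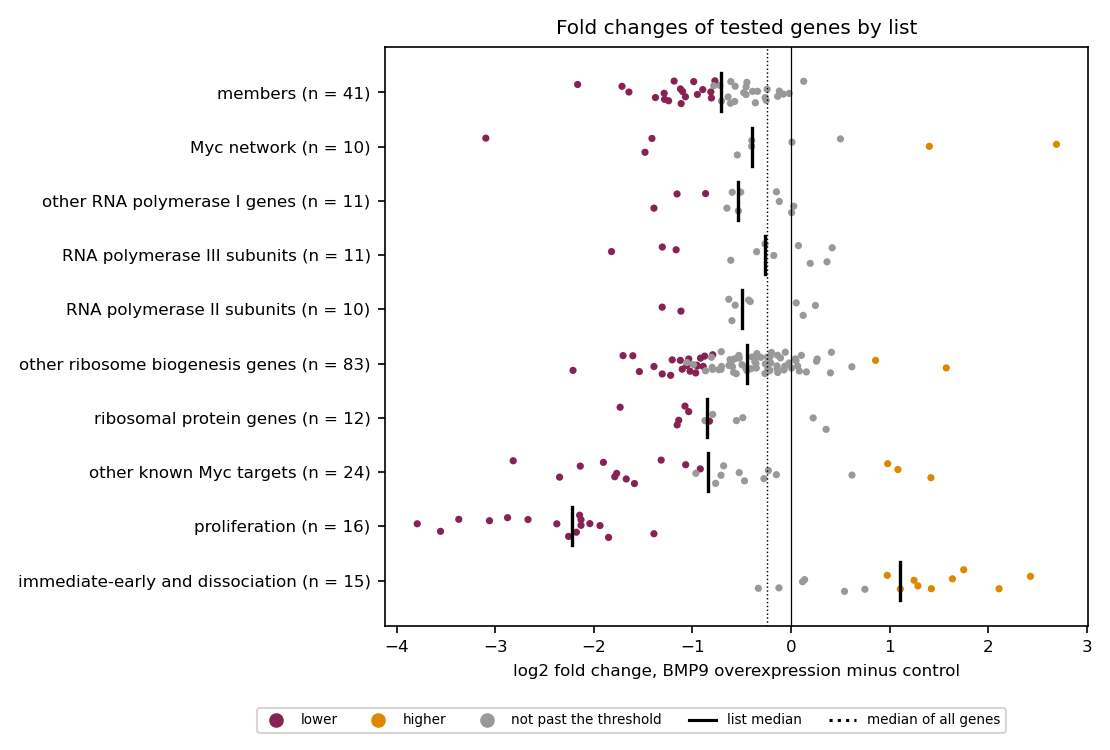
Log2 fold change (BMP9 overexpression minus control) of each tested gene in the 41 genes described here (labelled members) and in 9 comparison lists, purple for lower, orange for higher and grey for genes past no threshold, with list medians as bars and the median of all genes (-0.24) dotted. The bar lies at -0.71 for the 41 genes, at -0.45 for other ribosome biogenesis genes, at -2.22 for proliferation genes and at 1.11 for immediate-early genes.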

How the data were processed

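Per the labels' protocols, RNA of CD31-positive cells was amplified with the Ion AmpliSeq mouse transcriptome panel and read on Ion Torrent. The authors deposited RPM values, and the submitters' processing notes name build mm10. Aligner, counter and filters: not given in the sources used here. Within a library 100% of nonzero values were whole multiples of 1 read within 0.05 reads, and these recovered reads, PCR copies that carry no molecular identifier, gave the depths and the count-based alternatives. The chi-square per degree of freedom between libraries was at least 9.6, so no pair was treated as 1 library.

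Groups were compared on log2(RPM + 1) with limma-trend (version 3.58.1 under R 4.3.3) over all genes that reached 5 RPM in 3 or more of the 6 libraries, with Benjamini-Hochberg adjustment over all 9460 genes. Labels gave the groups, replicate numbers and run time stamps. The procedure was tested on simulated data. Alternatives were pseudocounts of 0.5 and 5, no filter, a mean of at least 20 RPM, a fit without trend, array weights, quantile normalization, TMM factors, the earlier stamp alone or stamp as a covariate, thinned reads, each library left out, and, on recovered reads, DESeq2 1.42.0 and the quasi-likelihood test of edgeR 4.0.16.

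The genes, lists and roles were chosen with earlier results of these data known. Values are given for Myc, for the 3 genes of each role with the smallest p and for each tested gene that was not called, with all genes of roles of 4 or fewer. Up to 4 genes with the smallest p were named in each comparison list, with at least 1 of each called direction, and some genes that this rule names are not reported here. Max, Mnt, Pak1ip1, Ldha, Eif4e, Pecam1, Cdh5 and Gdf2 were chosen after their values were seen. Positions are whole genes of GENCODE M21 on mm10, and amplicon positions were not used. The share of repeated sequence is that of 50-base windows, taken every 10 bases along the longest coding transcript.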

Additional observations from a re-analysis of the deposited data

How the results depend on the processing

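Myc stayed lower and past the threshold under each of the 19 alternatives (-1.88 to -1.41), and 0 of the 41 genes were called higher under any of them. The number called lower was 18 (43.9%, against 22.5% of all genes), and 11 with TMM factors (26.8% against 15.1%), 10 with DESeq2 (24.4% against 16.3%) and 9 with edgeR (22.0% against 15.0%). With no filter on low values it was 6 of 42, Nolc1 included (14.3% against 8.27%), where 18274 genes were tested. Ncl and the 7 genes lost with TMM factors were lost with DESeq2, and Nop14 besides with edgeR. The number was 8 to 18 when single libraries were left out, with 8 without control replicate 1 (19.5% against 14.5%) and 11 without BMP9 replicate 6 (26.8% against 16.4%), and 26 with array weights (63.4% against 35.4%). The median of the 41 genes was -0.71, against -0.48 with TMM factors, -0.54 after quantile normalization, -0.42 with DESeq2 and -0.41 with edgeR, and -0.78 to -0.61 with single libraries left out. These scalings also moved the median of all genes, from -0.24 to between -0.04 and 0.02.

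Genes near 0 changed sign. With TMM factors, quantile normalization, DESeq2 and edgeR, Pes1 was at 0.21, 0.0728, 0.19 and 0.20, Nop16 at 0.15, 0.0567, 0.21 and 0.22, and Rrp12 at 0.0887, 0.16, 0.0872 and 0.10. Polr1a was at 0.11 with TMM factors, 0.15 with DESeq2 and 0.16 with edgeR. DESeq2 and edgeR gave 0.0607 and 0.0711 for Gnl3, 0.21 and 0.22 for Noc3l (0.0451 with array weights), and 0.0301 and 0.0436 for the median of the RNA polymerase III subunits. With the earlier stamp alone or the stamp as a covariate, Pes1 was at 0.16, Rrp9 at 0.44 and Noc2l at 0.008. Thinned reads gave 0.0659 for Pes1, 0.044 for Nop16 and -0.0325 for Utp18. Leaving out single libraries gave -0.21 to 0.24 for Pes1, -0.31 to 0.13 for Nop16, -0.33 to 0.0076 for Polr1a, -0.53 to 0.0006 for Gnl3, -0.64 to 0.37 for Noc3l, -0.80 to 0.0066 for Rrp9 and -0.11 to 0.58 for Utp18. The cause of these changes was not tested. No paired analysis was possible because the groups share no replicate number. Depth limits Gar1, Nle1, Nolc1, Rrp9, Rrp12 and Rrs1, each with fewer than 20 reads in at least 1 library.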

Other observations

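The order of the BMP9 libraries was not the same for all genes. Of the 41 tested genes, 14 (34.1%, against 22.1% of all 9460 genes tested) were lowest in BMP9 replicate 4 and highest in BMP9 replicate 5, among them Ncl (30.9 and 330.2 RPM), Npm1 (185 and 445 RPM), Nop58 (83.6 and 192 RPM), Noc3l (14.2 and 60.3 RPM) and Gnl3 (22.8 and 48.5 RPM). BMP9 replicate 4 was the lowest of its group for 21 genes, replicate 5 for 12 and replicate 6 for 8. The ratio of the highest to the lowest BMP9 library had a median of 1.51 over the 41 genes and of 1.67 over all tested genes, and the same ratio in the control group was 1.48 and 1.52. In the control group replicate 1 was the highest for 23 of the 41 genes and replicate 2 the lowest for 24. Replicates 4 and 5 differ in run time stamp and in depth, with 1974510 and 4409655 reads, and the part of either in this order was not tested.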
